A study of Mus musculus with 24 samples.

Results

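A set of 6 genes that mark pyramidal cells of hippocampal field CA2 was followed through the series: Avpr1b, Rgs14, Pcp4, Amigo2, Cacng5 and Map3k15. They were taken by gene symbol and are 6 of the 51912 genes in the deposited count table. The study compared C57BL/6J mice whose fathers had received chronic nicotine or saline. The offspring themselves are not described as treated, and the labels give no age. Dorsal and ventral libraries of 1 title number and letter were taken to come from 1 animal, which gave 12 animals. The 24 RNA-seq libraries formed 8 groups of 3: nicotine-sired males, nicotine-sired females, saline-sired males and saline-sired females, each in both regions. The number in a library's title is the same for all animals of 1 sex and sire treatment, so a sire or litter that it might stand for cannot be told apart from the group. Nothing in the labels ties an animal to a litter, and some animals may be siblings. Within a region the p-values measure the spread between these animals. Those that compare regions come from a fit without an animal term, so they treat the 2 libraries of an animal as independent.

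CA2 is a short stretch of the pyramidal cell layer between CA3 and CA1. It is known for its role in social memory, for its vasopressin receptors, and for synapses from CA3 that resist the usual induction of long-term potentiation. Its cells are recognised by a set of genes rather than by 1 gene. Several of those genes are also expressed elsewhere, for example Pcp4 in dentate granule cells and Rgs14 in parts of CA1.

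The members have different tasks in the cell. Avpr1b (ENSMUSG00000026432, chromosome 1, 131599239 to 131612000, plus strand, GRCm38) encodes the vasopressin 1b receptor, which couples to Gq proteins. Rgs14 (ENSMUSG00000052087, chromosome 13, 55369732 to 55384687, plus strand) encodes a regulator of G protein signalling that acts on Gi proteins. Pcp4 (ENSMUSG00000090223, chromosome 16, 96467606 to 96525793, plus strand) encodes a small calmodulin-binding protein. Map3k15 (ENSMUSG00000031303, chromosome X, 159988433 to 160123351, plus strand) encodes a kinase at the top of a stress-activated MAP kinase cascade. Amigo2 (ENSMUSG00000048218, chromosome 15, 97244125 to 97247287, minus strand) encodes a cell adhesion protein of the neuronal membrane. Cacng5 (ENSMUSG00000040373, chromosome 11, 107874605 to 107915055, minus strand) encodes an auxiliary subunit of AMPA-type glutamate receptors.

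The Pcp4 value needs a caution that its sequence shows. In GENCODE release M21 the main 3-exon transcript of Pcp4 shares 2 exons with a 9-exon transcript of Igsf5, the gene upstream on the same strand. The shared stretches are chr16:96493816-96493867 (52 bases, all coding) and chr16:96525390-96525580 (191 bases, of which 125 are coding and the rest 3′ untranslated). Together these hold 243 of the 641 bases of the Pcp4 transcript. The 177 coding bases are identical in both transcripts and are printed spliced, 5′ to 3′, with those of the first shared exon in capitals.
Pcp4 and Igsf5: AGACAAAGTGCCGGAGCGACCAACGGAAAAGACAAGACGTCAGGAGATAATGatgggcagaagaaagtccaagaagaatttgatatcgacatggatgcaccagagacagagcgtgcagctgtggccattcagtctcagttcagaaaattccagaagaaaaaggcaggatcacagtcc
Igsf5 counts were 0.834 to 0.883 times the Pcp4 counts in all 24 libraries, with a median of 0.866. Across libraries the log2 levels of the 2 genes had an r of 0.999 in dorsal and 0.998 in ventral hippocampus. Whether reads from the shared exons were counted for both genes is not given in the sources used here, so the Pcp4 level is uncertain to that extent.

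Promoter sequences (RefSeq, GRCm38.p6; 250 bases before to 50 after the annotated start) were found for 3 of the 6 members, Cacng5, Amigo2 and Pcp4. They are printed because Cacng5 differed between the regions and the other two did not pass that test. Capitals mark matches, on either strand, to 4 motifs: the TATA box TATAAA, the GC box GGGCGG, the E-box CANNTG and the cyclic AMP response element TGACGTCA.
Cacng5 chr11:107915006-107915305 minus strand: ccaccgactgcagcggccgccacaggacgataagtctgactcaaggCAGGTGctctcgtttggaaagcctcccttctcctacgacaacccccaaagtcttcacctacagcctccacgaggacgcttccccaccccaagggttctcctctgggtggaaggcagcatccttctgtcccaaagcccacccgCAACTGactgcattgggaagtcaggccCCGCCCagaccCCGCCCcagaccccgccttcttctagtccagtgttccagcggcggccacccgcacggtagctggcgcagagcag
Amigo2 chr15:97247238-97247537 minus strand: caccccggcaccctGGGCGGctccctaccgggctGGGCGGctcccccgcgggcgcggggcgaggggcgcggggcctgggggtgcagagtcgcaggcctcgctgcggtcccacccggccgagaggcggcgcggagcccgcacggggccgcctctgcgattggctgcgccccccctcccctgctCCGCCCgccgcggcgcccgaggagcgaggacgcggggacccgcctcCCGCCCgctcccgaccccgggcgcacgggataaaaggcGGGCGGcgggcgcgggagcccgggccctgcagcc
Pcp4 chr16:96467356-96467655 plus strand: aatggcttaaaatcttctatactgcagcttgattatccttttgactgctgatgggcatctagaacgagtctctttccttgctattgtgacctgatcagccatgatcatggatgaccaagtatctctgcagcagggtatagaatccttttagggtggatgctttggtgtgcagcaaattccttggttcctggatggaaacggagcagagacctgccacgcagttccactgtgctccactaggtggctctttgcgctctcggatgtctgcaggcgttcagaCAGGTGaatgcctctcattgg
Cacng5 held 2 GC boxes and 2 E-boxes, Amigo2 held 5 GC boxes, and Pcp4 held 1 E-box. Neither the TATA box nor the cyclic AMP response element was matched in any of the 3 windows. Of 32817 RefSeq promoters of 300 bases, 35.6% held the GC box, 72.3% the E-box, 13.6% the TATA box and 1.79% the cyclic AMP response element. G and C made up 83.3% of the Amigo2 window, 63.3% of the Cacng5 window and 48.7% of the Pcp4 window, beside a median of 52.7% over all promoters. The Amigo2 window held 46 CpG dinucleotides, the Cacng5 window 17 and the Pcp4 window 6, beside a median of 7.

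All 24 libraries held 32049770 to 47486547 counted reads. Levels are given as CPM, counts per 1000000 of the TMM-scaled library size. A total of 3 libraries stood apart. The dorsal library of nicotine-sired female A had the highest summed level of neocortical genes, 249 CPM beside 86.6 to 137 in the other 11 dorsal libraries, and the ventral library of the same animal had the highest ventral sum, 228 CPM. The dentate granule cell genes of the dorsal library summed to 288 CPM beside 374 to 639. It also had the lowest dorsal level of 5 members and the highest of Pcp4. In the dorsal library of saline-sired male A, the transcription factor genes Eomes and Sp8 stood at 13.6 and 11.8 CPM. In the ventral library of saline-sired male B they stood at 6.66 and 5.73 CPM. The other 22 libraries did not exceed 2.38 CPM for Eomes and 2.56 CPM for Sp8. Several of the results that these libraries affect are also given without them.

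The plot of CPM in each library shows the levels on which the comparisons rest. Per kilobase of exon the order of mean dorsal levels was Pcp4 (100.3 CPM per kb), Rgs14 (28.6), Amigo2 (9.08), Cacng5 (4.30), Map3k15 (0.524) and Avpr1b (0.203). The ventral order was the same: Pcp4 (88.3 CPM per kb), Rgs14 (16.5), Amigo2 (7.67), Cacng5 (1.92), Map3k15 (0.244) and Avpr1b (0.0323). On this scale the dorsal ranges of Amigo2 and Cacng5 overlapped, as did those of Map3k15 and Avpr1b, while no neighbours in the ventral order overlapped. The receptor Avpr1b was close to the limit of detection, with 5 to 63 counts in dorsal and 0 to 11 counts in ventral libraries.

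**Figure D1:**
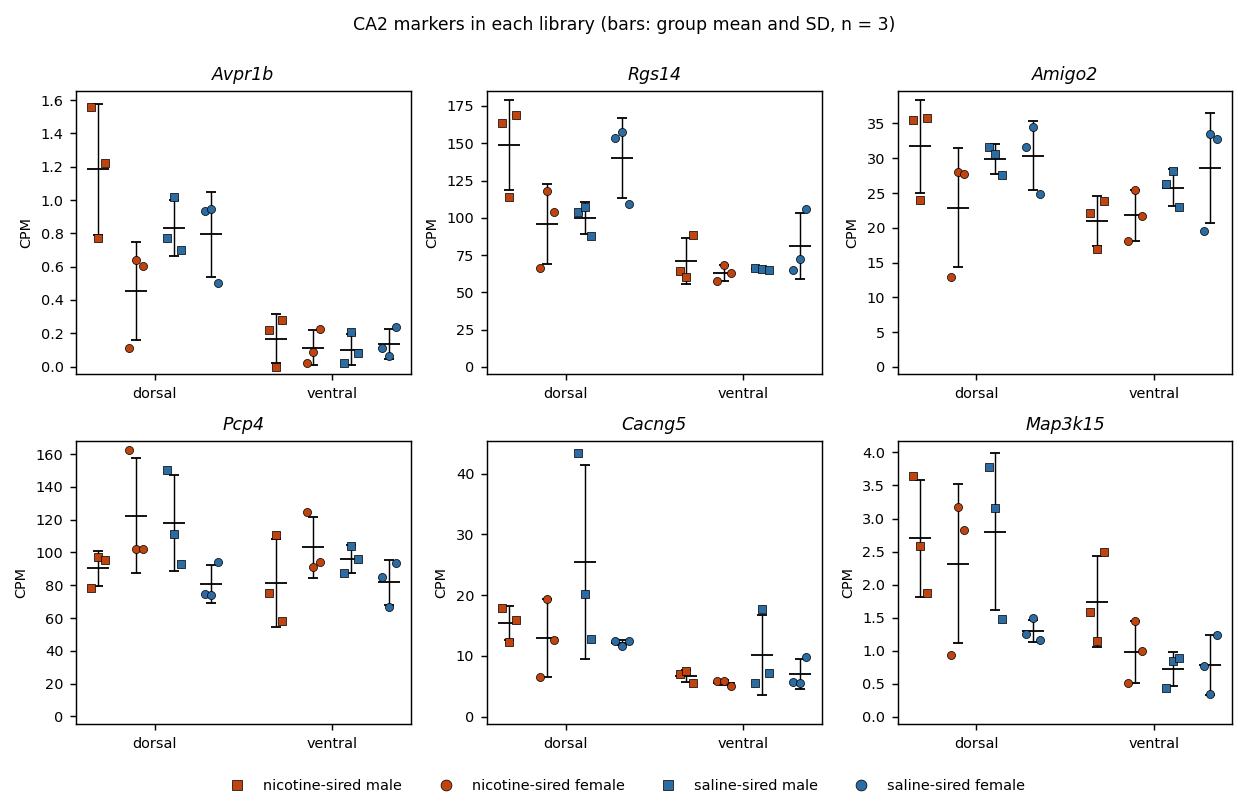
CPM (vertical axis, linear) of the 6 genes in each of the 24 libraries, by region, sire treatment (colour) and sex (shape); horizontal bars are group means and error bars are SD, n = 3. The ventral points of Avpr1b lie at or below 0.281 CPM, and 1 dorsal point of Cacng5, saline-sired male A, lies at 43.4 CPM.

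The first comparison asked how the CA2 genes differ between ventral and dorsal hippocampus. Of the 6 genes, 4 fell from dorsal to ventral: the receptor Avpr1b, the signalling genes Rgs14 and Map3k15, and the AMPA receptor subunit gene Cacng5. Amigo2 and Pcp4 did not pass the test. Over all 19849 genes tested by edgeR's quasi-likelihood test with Benjamini-Hochberg adjustment, 29.2% passed, 14.9% as lower and 14.3% as higher in ventral. All 6 members passed the filter on low counts, Avpr1b only through the dorsal groups, where it is high, so their count and median are descriptions. Their median log2 fold change was −0.95, beside −0.01 over all genes. In bulk tissue, fewer CA2 cells and less RNA per cell cannot be told apart.

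Avpr1b ranged from 0.112 to 1.56 CPM in dorsal libraries, with a median of 0.774. In ventral libraries it ranged from 0 to 0.281 CPM, with a median of 0.0994. In all, 11 dorsal libraries were above every ventral one, and only that of nicotine-sired female A overlapped them. The mean was 0.815 ± 0.366 CPM (SD, n = 12) in dorsal and 0.130 ± 0.0983 CPM in ventral, a log2 fold change of −2.58 ± 0.38 (SE; adjusted p = 3.12e-05, edgeR). Fitted without the filter on low counts, which Avpr1b passed only through the dorsal groups, it was −2.58 ± 0.39 (adjusted p = 5.45e-05, edgeR). The single ventral library at 0, nicotine-sired male B, allows up to 3 counts or 0.0635 CPM, for counting error only. Within ventral hippocampus Avpr1b did not pass the filter and was not tested.

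Rgs14, the Gi regulator, ranged from 66.1 to 169 CPM in dorsal libraries, with a median of 112. Ventral libraries ranged from 57.4 to 106 CPM, with a median of 65.2. Of the dorsal libraries, 8 were above every ventral one. Means were 121 ± 32.5 and 70.1 ± 13.7 CPM (SD, n = 12 each), a log2 fold change of −0.77 ± 0.11 (adjusted p = 3.55e-05, edgeR).

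Cacng5 ranged from 6.55 to 43.4 CPM in dorsal libraries, with a median of 12.7, and from 5.09 to 17.6 CPM in ventral ones, with a median of 5.80. The highest value of each region came from the 2 libraries with high Eomes and Sp8. The log2 fold change was −1.13 ± 0.23 (adjusted p = 0.0012, edgeR), with means of 16.5 ± 9.30 and 7.37 ± 3.50 CPM. Without the 3 libraries that stood apart it was −1.22 ± 0.12 (adjusted p = 2.69e-06, edgeR), so the difference was as large without them.

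Map3k15 ranged from 0.939 to 3.78 CPM in dorsal libraries, with a median of 2.23, and from 0.344 to 2.50 CPM in ventral ones, with a median of 0.945. Its log2 fold change was −1.14 ± 0.25 (adjusted p = 0.00151, edgeR), with means of 2.28 ± 1.03 and 1.06 ± 0.596 CPM. On the opposite strand, 603 exon bases of Map3k15 overlap Pdha1, a gene of mitochondrial pyruvate oxidation, which stood at 213 ± 9.89 CPM in dorsal and 231 ± 9.58 CPM in ventral libraries. The strand setting of the counting is not given in the sources used here, so reads of the 2 genes cannot be told apart in that stretch. The mean of Pdha1 was higher in ventral libraries, whereas that of Map3k15 was lower.

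The adhesion gene Amigo2 ranged from 13.0 to 35.8 CPM in dorsal and from 16.9 to 33.5 CPM in ventral libraries, with medians of 29.3 and 23.4. The ranges overlapped nearly throughout. Its log2 fold change was −0.24 ± 0.13 (adjusted p = 0.164, edgeR). Without the 3 libraries that stood apart it passed the test, at −0.32 ± 0.11 (adjusted p = 0.0434, edgeR), and it also passed without both libraries of nicotine-sired female A (adjusted p = 0.0399). Over all alternatives tried, apart from those that left out 1 animal, its adjusted p ran from 0.0434 to 0.299. A stretch of 58 bases of Amigo2 lies opposite Pced1b, which stood at 3.66 ± 0.498 CPM in dorsal and 3.56 ± 0.484 CPM in ventral libraries.

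Pcp4, subject to the caution on Igsf5, ranged from 74.0 to 163 CPM in dorsal and from 58.1 to 125 CPM in ventral libraries, with medians of 96.3 and 92.3. Its log2 fold change was −0.17 ± 0.12 (adjusted p = 0.298, edgeR), and −0.06 ± 0.11 without the 3 libraries that stood apart.

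Within animals the direction was steady for some members and mixed for others, as the plot of ventral to dorsal ratios shows. Avpr1b, Rgs14 and Cacng5 were lower in ventral hippocampus in 12 of 12 animals, a pattern found in 4.84% of all genes tested. Map3k15 and Amigo2 were lower in 10 animals and Pcp4 in 9. The median ratio was 0.137 for Avpr1b, 0.595 for Rgs14, 0.468 for Cacng5, 0.448 for Map3k15, 0.832 for Amigo2 and 0.929 for Pcp4. The exceptions for Amigo2 included nicotine-sired female A, at a ratio of 1.39. For Map3k15 the highest ratio, 1.34, belonged to nicotine-sired male C.

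**Figure D2:**
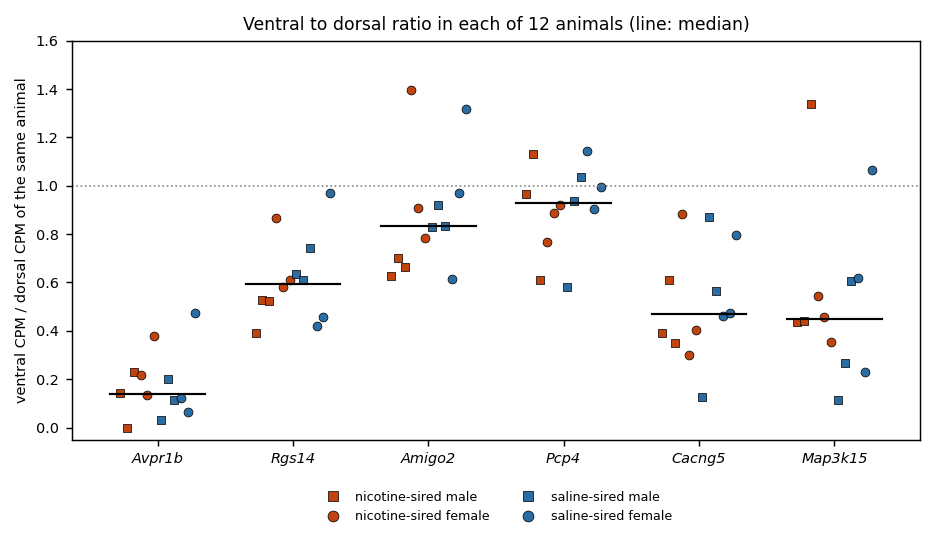
Ratio of ventral to dorsal CPM in the same animal (vertical axis, linear) for each gene, with 12 animals per gene coloured by sire treatment and shaped by sex; black lines are medians and the dotted line marks equal levels. All 12 points of Avpr1b, Rgs14 and Cacng5 lie below 1, while points of Map3k15, Amigo2 and Pcp4 lie on both sides.

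Split by group, with 3 animals each, fewer members passed, all as lower in ventral. Among nicotine-sired males Avpr1b (−2.86 ± 0.72 on the log2 scale, adjusted p = 0.0179, edgeR) and Rgs14 (−1.07 ± 0.22, adjusted p = 0.00626) fell, beside 3.53% of all genes. Among saline-sired males Avpr1b (−2.97 ± 0.77, adjusted p = 0.029, edgeR) and Map3k15 (−1.95 ± 0.50, adjusted p = 0.0281) fell, beside 2.73% of all genes. Fitted without the filter on low counts, which Avpr1b passed only through the dorsal groups, its adjusted p was 0.0313 in nicotine-sired and 0.0497 in saline-sired males (edgeR). No member passed among nicotine-sired females (2.47% of all genes lower) or saline-sired females (1.21%). At unadjusted p under 0.05, 4 members stood in nicotine-sired females, beside 17.4% of all genes, and 2 in saline-sired females, beside 17.1%. DESeq2 called Rgs14 in each, beside 3.54% and 2.53% of all genes called as lower. Leaving out the libraries that stood apart, which left 2 dorsal nicotine-sired females, gave 4 calls in that group, beside 4.12% of all genes. It gave 0 calls in saline-sired males, of whom 2 libraries per region were left, beside 0.03% of all genes. The calls in the male groups did not all hold with 1 animal less. Each group fell to 0 calls without its own replicate A, and saline-sired males also without replicate B. Such a refit leaves 2 animals in the group, so it cannot tell calls that rest on 1 animal from calls lost with fewer libraries.

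Whether the regional difference depends on sire treatment or sex was tested directly. No member passed for either, and neither did any other gene (0% of 19849; 945 genes at unadjusted p under 0.05 for treatment and 353 for sex in edgeR, and 0 called by DESeq2 in each). Avpr1b, for example, had an interaction with sire treatment of 0.31 ± 0.79 on the log2 scale. Differences between groups in what passed are therefore not shown to be differences in effect.

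Other genes were read beside the members from lists of genes enriched in CA2, relatives of the members and signalling partners. Of 11 further CA2-enriched genes, 9 passed between the regions, 6 as lower and 3 as higher in ventral, beside 14.9% and 14.3% of all genes, with a median log2 fold change of −0.37. The lower ones included Srl, a calcium-binding gene of the sarcoplasmic reticulum in muscle (−0.81 ± 0.10), Acan, the core protein of perineuronal nets (−0.65 ± 0.10), and the growth factor genes Ntf3 (−0.64 ± 0.13) and Fgf2 (−0.37 ± 0.07). Nr3c2, the mineralocorticoid receptor, fell by 0.62 ± 0.14 and Sostdc1, a secreted antagonist of BMP and Wnt ligands, by 1.71 ± 0.52. Sostdc1 varied widely between libraries, at 11.1 ± 11.4 CPM (SD) in dorsal and 3.84 ± 4.16 CPM in ventral hippocampus. The oxytocin receptor gene Oxtr rose by 1.11 ± 0.11, the calcium-binding gene Necab2 by 0.74 ± 0.11 and the actin crosslinker Actn2 by 0.36 ± 0.08. The receptors for the related peptides vasopressin and oxytocin thus had opposite directions. Oxtr stood at 5.51 ± 1.94 CPM in dorsal and 11.7 ± 1.02 CPM in ventral libraries.

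Of 13 relatives tested, 3 passed, a share no higher than the 29.2% of all genes. Rgs12 rose (0.29 ± 0.08), while Rgs10 (−0.38 ± 0.05) and the AMPA receptor subunit gene Cacng8 (−0.36 ± 0.09) fell. Avpr1a, the other vasopressin receptor gene of this class, had −0.86 ± 0.41 (adjusted p = 0.118, edgeR) at a mean of 0.303 CPM in dorsal and 0.150 CPM in ventral libraries. Of 20 signalling partners, 7 fell and 3 rose, beside 14.9% and 14.3% of all genes. Those that fell included Gnaq (−0.24 ± 0.05), the Gq subunit used by vasopressin receptors, Calm3 (−0.16 ± 0.04), the MAP kinase kinase gene Map2k7 (−0.11 ± 0.03) and Nrgn (−0.30 ± 0.09), a calmodulin-binding gene. Gnai1 (0.18 ± 0.05), Rap2a (0.13 ± 0.04) and Map2k4 (0.14 ± 0.04) rose. The medians of the 2 lists, −0.08 and −0.10, were nearer to that of all genes than the median of the members was.

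Markers of other cells also moved between the regions, in both directions, beside 29.2% of all genes. All 8 dentate granule cell genes were lower in ventral, with a median of −0.92, and their sum ranged from 288 to 639 CPM in dorsal and from 159 to 308 CPM in ventral libraries. All 5 oligodendrocyte genes were lower as well, summing to 4677 to 8618 CPM in dorsal and 3278 to 4592 CPM in ventral libraries. So were 6 of 7 choroid plexus genes, whose sum ran from 58.6 to 5523 CPM in dorsal and from 42.7 to 1923 CPM in ventral libraries. Of the 5 genes of the neighbouring field CA1, 1 was higher and 2 were lower, with sums of 488 to 762 and 571 to 732 CPM. Of 5 CA3 genes, 2 were higher and 2 lower, with sums of 298 to 450.0 and 345 to 429 CPM. Of 4 mossy cell genes 2 were higher and 0 lower (median 0.63), and of 7 interneuron genes 3 were higher and 1 lower (median 0.16). Of 6 astrocyte genes 2 were higher and 0 lower (median 0.08), and of 4 neocortical genes 1 was higher and 0 lower (median 0.37). The astrocyte and neocortical counts are near the share of all genes that passed. With so few genes per list, no direction of a cell type is read from these 4 lists. Thalamic genes were divided, 2 of 5 higher and 2 lower, 1 of 5 microglial genes was lower, and 0 of 4 endothelial genes passed. None of these markers was at 0 in any library. Their part in the fall of the CA2 members and of the other CA2-enriched genes, Sostdc1 among them, was not tested.

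The second comparison asked whether sire treatment changed the CA2 genes. No member passed in dorsal or ventral hippocampus, over both sexes or within either sex. In dorsal hippocampus over both sexes 0.0784% of 19130 genes passed, and in ventral hippocampus 1.75% of 19224 genes. The dorsal log2 fold changes, nicotine-sired against saline-sired, were −0.16 ± 0.34 for Avpr1b, 0.02 ± 0.16 for Rgs14, 0.11 ± 0.16 for Pcp4, 0.38 ± 0.31 for Map3k15, −0.16 ± 0.19 for Amigo2 and −0.32 ± 0.33 for Cacng5. Of the members, 0 stood at unadjusted p under 0.05.

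Mean dorsal Avpr1b was 0.818 ± 0.508 CPM in the 6 nicotine-sired and 0.812 ± 0.193 CPM in the 6 saline-sired animals. The nicotine-sired values ran from 0.112 to 1.56 CPM and enclosed the saline-sired ones, 0.501 to 1.02 CPM. Dorsal Rgs14 was likewise close, at 122 ± 38.6 and 120 ± 28.7 CPM.

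In ventral hippocampus Map3k15 had 0.78 ± 0.33 (unadjusted p = 0.0336, adjusted p = 0.272, edgeR), with means of 1.36 ± 0.673 CPM in nicotine-sired and 0.756 ± 0.328 CPM in saline-sired animals. The 2 sets of values overlapped, from 0.509 to 2.50 and from 0.344 to 1.25 CPM. Amigo2 had −0.34 ± 0.15 (unadjusted p = 0.0364, adjusted p = 0.282, edgeR), with 21.4 ± 3.30 and 27.2 ± 5.47 CPM. Without saline-sired female A, Amigo2 passed at −0.45 ± 0.10 (adjusted p = 0.041, edgeR), while its adjusted p over the alternatives that kept all animals ran from 0.155 to 0.994. Cacng5 had −0.47 ± 0.28, Rgs14 −0.12 ± 0.13 and Pcp4 0.05 ± 0.16. For Avpr1b, fitted without the filter on low counts, the ventral value was 0.16 ± 0.66, so a difference within that error was not detectable at this depth.

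Within the sexes the share of all genes that passed was 1.78% in dorsal males, 0.0314% in dorsal females, 3.21% in ventral males and 0.0312% in ventral females. The values for the members are in the plot of sire treatment effects. Every member took opposite signs in dorsal males and females, some with a value within its SE of no change. Rgs14 and Pcp4, which had the smallest unadjusted p in both sexes, are given by library. Dorsal Rgs14 was 164, 114 and 169 CPM in nicotine-sired males, 104, 108 and 87.4 CPM in the 3 saline-sired males, 66.1, 118 and 104 CPM in the 3 nicotine-sired females, and 154, 157 and 109 CPM in saline-sired females. Every nicotine-sired male was above every saline-sired male, as in 12.6% of all dorsal genes tested, while the female groups overlapped. In males the log2 fold change was 0.58 ± 0.23 (adjusted p = 0.231, edgeR) and in females −0.54 ± 0.23 (adjusted p = 0.353). A total of 9 alternatives, 1 of them without the libraries that stood apart, gave 0.56 to 0.61 in males. The same alternatives gave −0.60 to −0.34 in females.

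Dorsal Pcp4 was 78.1, 97.4 and 95.3 CPM in nicotine-sired males, 150.0, 111 and 92.9 CPM in the 3 saline-sired males, 163, 102 and 102 CPM in the 3 nicotine-sired females, and 74.5, 74.0 and 94.1 CPM in saline-sired females. Here every nicotine-sired female was above every saline-sired female, as in 8.56% of all dorsal genes tested, while the male groups overlapped. The log2 fold change was −0.39 ± 0.22 in males (adjusted p = 0.393, edgeR) and 0.61 ± 0.22 in females (adjusted p = 0.304). Over the same 9 alternatives it ran from −0.39 to −0.17 in males and from 0.33 to 0.61 in females.

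**Figure D3:**
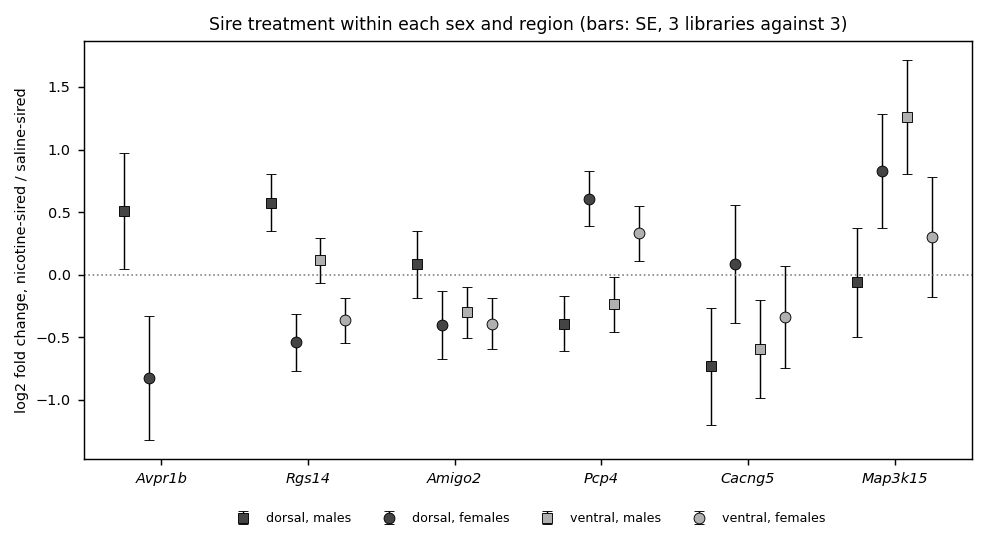
Log2 fold change of nicotine-sired against saline-sired offspring (vertical axis) for each gene in dorsal (dark) and ventral (light) hippocampus of males (squares) and females (circles); error bars are SE from the edgeR fit of 3 libraries against 3, and Avpr1b was not tested in ventral libraries. Dorsal Rgs14 lies at 0.58 in males and −0.54 in females, dorsal Pcp4 at −0.39 and 0.61, and no value passed the adjusted threshold.

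The difference of the treatment effect between males and females was tested itself. In dorsal hippocampus it was 1.11 ± 0.32 for Rgs14 (unadjusted p = 0.00581, adjusted p = 0.0961, edgeR) and −1.0 ± 0.31 for Pcp4 (unadjusted p = 0.00949, adjusted p = 0.117), and neither passed, beside 2.24% of all genes. DESeq2 called both, at adjusted p of 0.00555 and 0.0124, and called 6.70% of all genes. A fit that used the spread of all 24 libraries called Rgs14 (adjusted p = 0.038, edgeR) and 5.73% of all genes. Without the 2 dorsal libraries that stood apart, the values were 0.96 ± 0.30 for Rgs14 (adjusted p = 0.128) and −0.51 ± 0.18 for Pcp4 (adjusted p = 0.143), in edgeR. The Pcp4 difference was thus smaller without these libraries, which held its 2 highest dorsal values.

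Other members had 1.33 ± 0.68 for Avpr1b, 0.49 ± 0.38 for Amigo2, −0.81 ± 0.66 for Cacng5 and −0.89 ± 0.63 for Map3k15. The same difference had a median of 0.52 over 5 CA1 genes, 0.62 over 5 CA3 genes, −0.31 over 8 dentate granule cell genes and −3.21 over 7 choroid plexus genes, with 0 passing in each list, beside −0.02 over all genes. It was −0.83 over 4 mossy cell genes and −0.53 over 4 neocortical genes, again with 0 passing. Medians were smaller in size over 5 oligodendrocyte (−0.16), 5 thalamic (−0.04) and 6 astrocyte genes (0.02), with 0 passing. Of 7 interneuron genes (median −0.63), 2 passed as lower. Of 4 endothelial genes (median −0.47), 1 passed as lower, and of 5 microglial genes (median 0.07), 1 passed as higher. The part of these other cells in the Rgs14 and Pcp4 values was not tested. In ventral hippocampus the difference was 0.48 ± 0.25 for Rgs14 and −0.57 ± 0.31 for Pcp4, and no member passed, beside 1.07% of all genes.

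Males and females over both sire treatments were compared last. No member passed in dorsal (0.183% of all genes) or ventral hippocampus (0.291%). The 6 dorsal values, male against female, were all positive, from 0.05 ± 0.16 for Pcp4 to 0.74 ± 0.34 for Avpr1b (adjusted p = 0.611, edgeR). They include nicotine-sired female A, whose dorsal library stood apart and was lowest for every member but Pcp4. In ventral hippocampus 3 of the 5 members tested had a negative value. Among the lists of other CA2-enriched genes, relatives and partners, 1 gene passed for sire treatment, the Map3k15 relative Map3k6. On the log2 scale it fell by 1.26 ± 0.22 in dorsal males, by 0.85 ± 0.13 in ventral hippocampus over both sexes and by 1.11 ± 0.18 in ventral males. Map3k15 itself had −0.06 ± 0.44 in dorsal males and 1.26 ± 0.46 in ventral males (adjusted p = 0.183, edgeR).

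The members were then compared with each other across the 12 libraries of each region, as log2 CPM. Over 30 pairs, 5 correlations had an adjusted permutation p under 0.05, all in dorsal hippocampus. Avpr1b and Amigo2 had r = 0.948 (adjusted p = 0.0027 by permutation, rho = 0.818, adjusted p = 0.0256), Avpr1b and Rgs14 r = 0.842 (adjusted p = 0.0053, rho = 0.741, adjusted p = 0.0491), and Rgs14 and Amigo2 r = 0.830 (adjusted p = 0.0053, rho = 0.769, adjusted p = 0.0378). Cacng5 and Map3k15 had r = 0.770 (adjusted p = 0.00562 by permutation, rho = 0.797, adjusted p = 0.0301). Pcp4 ran against Rgs14, at r = −0.768 (adjusted p = 0.0187 by permutation), although the rank correlation of −0.594 did not pass (adjusted p = 0.183).

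The smallest raw permutation p of these, 9e-05, belonged to Avpr1b and Amigo2. Nicotine-sired female A was among the 2 libraries farthest from the median in every dorsal pair. Without those 2 libraries r was 0.784 for Avpr1b and Amigo2, 0.655 for Avpr1b and Rgs14, 0.658 for Rgs14 and Amigo2, 0.706 for Cacng5 and Map3k15, and −0.688 for Rgs14 and Pcp4, none with an adjusted permutation p under 0.05. The 5 dorsal r values were thus smaller in size without those libraries. With fewer libraries and a narrower range of values, that check cannot show how far the relations rest on them. In ventral hippocampus no pair passed by Pearson r over the 12 libraries, and 1 passed by rank. This pair, Rgs14 and Amigo2, had r = 0.648 (adjusted permutation p = 0.0865), rho = 0.860 (adjusted p = 0.0135) and r = 0.879 without the 2 farthest libraries (adjusted p = 0.0282). Pcp4 had a negative r with Avpr1b, Rgs14 and Amigo2 in both regions, from −0.768 to −0.420. Ventral Avpr1b held only 0 to 11 counts per library, so its ventral r values carry much counting error. Of these only that with Rgs14 in dorsal libraries passed, the others having an adjusted permutation p of 0.0865 to 0.308, and none passed by rank. Without the 2 farthest libraries these r values ran from −0.810 (Rgs14, ventral) to −0.121 (Avpr1b, ventral).

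**Figure D4:**
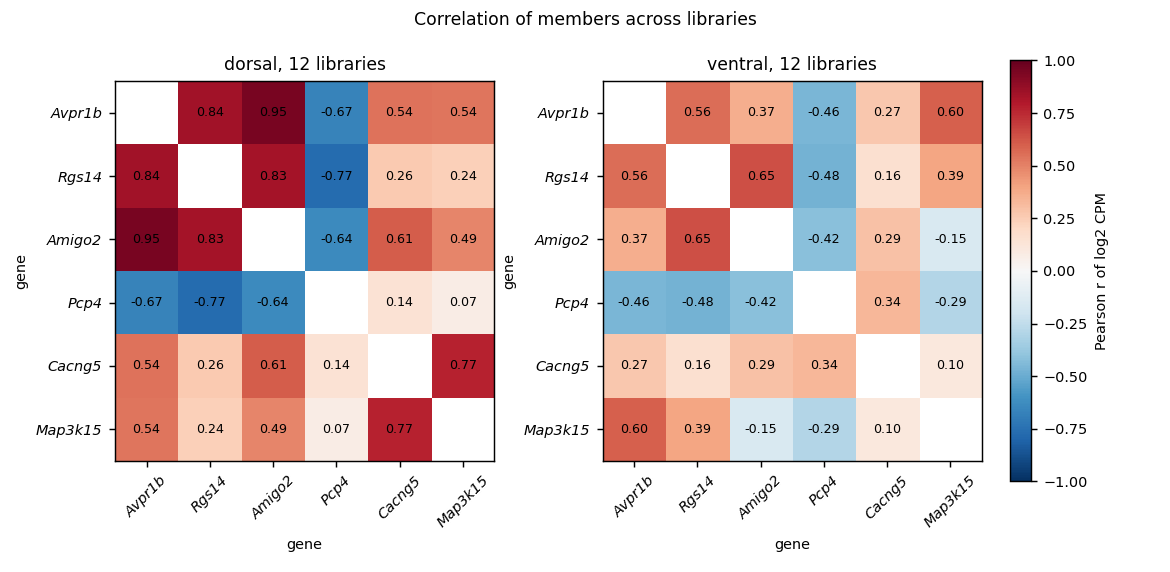
Pearson r of log2 CPM between each pair of genes across 12 dorsal (left) and 12 ventral (right) libraries, printed in each cell and coloured from −1 (blue) to 1 (red). Avpr1b, Rgs14 and Amigo2 form a block of positive values in dorsal libraries, from 0.830 to 0.948, and Pcp4 is negative against all 3 in both panels. Of these negative values only that with Rgs14 in dorsal libraries passed the adjusted threshold. Ventral values of Avpr1b rest on 0 to 11 counts per library.

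The genes whose levels followed each member most closely were taken from 13121 genes, by the mean of the r within dorsal and the r within ventral libraries. These values are descriptions, since the libraries share depth and composition. Rgs14 was followed by Lefty1 (mean r = 0.946), a secreted antagonist of the TGF-beta family, Lmo1 (0.939) and Gmpr (0.932). Amigo2 was followed by Ncdn (0.905), the calcium channel gene Cacna1h (0.904) and Prdm8 (0.902). Avpr1b was followed by Arhgap12 (0.832), Gpr63 (0.810) and Dnah9 (0.803), and Map3k15 by Ulk4 (0.771), Mbd2 (0.770) and Pkd2 (0.769). For Avpr1b the ventral part of that mean rests on 0 to 11 counts per library. Pcp4 was followed by Igsf5 (0.998), which shares its exons, and then by Atp6ap1l (0.887) and Stat6 (0.873).

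Cacng5 was followed by Eomes (mean r = 0.899), Sp8 (0.852) and Scgn (0.817), of which the first and second encode transcription factors and the third a calcium-binding protein. In the dorsal library of saline-sired male A, Cacng5 stood at 43.4 CPM and Scgn at 4.997 CPM. In the ventral library of saline-sired male B they stood at 17.6 and 4.12 CPM. The other 22 libraries ran from 5.09 to 20.2 CPM for Cacng5 and from 0.159 to 1.84 CPM for Scgn. The plot of Cacng5 against Eomes shows both libraries to the right of the rest. Without these 2 libraries the mean r with Cacng5 was 0.657 for Eomes, 0.389 for Sp8 and 0.429 for Scgn, so the likeness rests in part on them (a check chosen after seeing the data). The same 2 libraries held the highest summed mossy cell markers of their regions, 85.7 CPM each, beside medians of 29.5 CPM in dorsal and 55.7 CPM in ventral libraries. The next highest dorsal sum was 42.8 CPM, in saline-sired male C. In ventral hippocampus the next was close, 79.1 CPM in saline-sired female B, whose Cacng5 stood at 5.53 CPM. The part of mossy cell markers in the Cacng5 values was not tested.

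**Figure D5:**
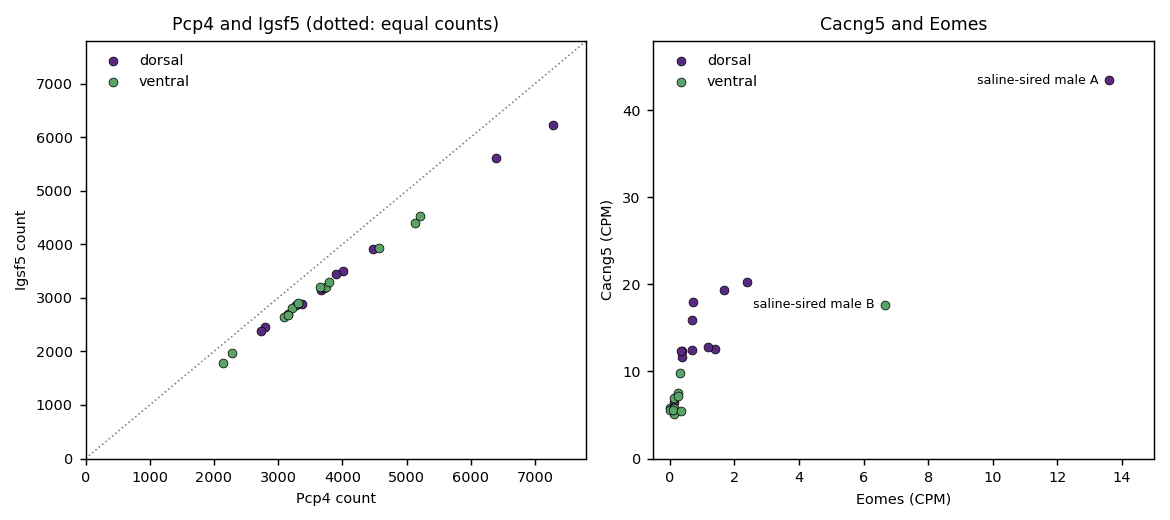
Left: Igsf5 count against Pcp4 count in the 24 libraries, with a dotted line of equal counts; the points follow a straight line at 0.834 to 0.883 times the Pcp4 count. Right: Cacng5 CPM against Eomes CPM (linear axes), where the dorsal library of saline-sired male A (13.6 CPM of Eomes) and the ventral library of saline-sired male B (6.66 CPM) lie apart from the other 22.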

How the data were processed

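RNA from dorsal and ventral hippocampus was made into stranded mRNA libraries and read as single ends, per the labels' protocols. The deposited file is 1 table of raw counts (51912 genes). TopHat2 2.1.0, Cufflinks and Cuffdiff 2.2.1.3 and the build mm10 (GRCm38) are named, per the submitters' processing notes. Neither the counting tool nor its strand setting is given in the sources used here. GENCODE M21 held 51719 of the gene identifiers and gave coordinates. Groups came from the labels.

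Counts were tested with edgeR 4.0.16 (R 4.3.3): TMM, filterByExpr by group, robust two-sided quasi-likelihood F test, and Benjamini-Hochberg adjustment over all genes with a threshold of 0.05. Regions were compared in 1 fit of 24 libraries (19849 genes) without an animal term. Sire treatment and sex were compared within each region (19130 dorsal and 19224 ventral genes). The scripts were tested on simulated counts. Correlations used log2(CPM + 0.1) and 100000 permutations, two-sided. DESeq2 1.42.0 and other settings were alternatives. The members and lists were chosen with earlier results of these data known. All 6 members were described, of the lists up to 8 genes of smallest p past the threshold in each comparison, and the 3 genes most like each member (mean CPM at least 1). Named beyond this after seeing values were Sostdc1, Avpr1a and the overlapping genes. Of the signalling partners, 1 gene is not reported here by name. Dorsal and ventral libraries of 1 title number and letter were taken to come from 1 animal. Their deviations from the group means correlated at −0.0755 to 0.528, with 9 of 12 pairs over 0.1. In 9 of 12 animals the dorsal library correlated best with its own ventral library among those of its group. The exceptions were saline-sired male A (−0.0755, beside 0.139 with another animal) and saline-sired females A (0.0166 beside 0.0627) and C (0.0377 beside 0.145). The pairing is thus an assumption for the ratios within animals.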

Additional observations from a re-analysis of the deposited data

How the results depend on the processing

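Between the regions, the 4 calls held in direction and threshold under 5 other settings, with 1 animal left out in turn (4 to 5 calls), and without the 3 libraries that stood apart (5 calls, an alternative chosen after seeing the data). Calls within single groups were less steady. For saline-sired males there were 1 without the low-count filter, 4 with DESeq2, 0 without the libraries that stood apart, and 0 to 2 with 1 animal left out. Saline-sired females had 1 with the fit that was not robust, 1 with DESeq2, 1 with the replicate block on animal, which pairs the regions, and 0 to 2 with 1 animal left out. The block changed no other call between the regions. Nicotine-sired females had 1 with DESeq2 and 4 without the libraries that stood apart, and nicotine-sired males 0 to 2 with 1 animal left out. The cause was not tested.

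For the dorsal difference of sire treatment between sexes, DESeq2 gave 2 calls and the spread of all 24 libraries 1. Sire treatment in ventral hippocampus gave 0 to 1 with 1 animal left out. Title letters did not pair libraries of different groups (r from −0.338 to 0.279), and a block on the letter gave no call of a member. Correlations past the threshold were 14 on residuals from group means, 3 of them ventral, and 1 without the 2 farthest libraries. Residuals cancel out within each group, whereas the permutations shuffled them over all 12 libraries of a region. The p-values on residuals can therefore be too small, and the 14 cannot be set against the 5 found on log2 CPM. Values that changed sign were all far from the threshold. Dorsal Rgs14 under sire treatment was −0.0083 with choroid plexus level as a covariate and −0.071 to 0.12 with 1 animal left out. Dorsal Avpr1b was 0.056 without the libraries that stood apart and −0.33 to 0.080 with 1 animal left out, dorsal Amigo2 0.0024 and dorsal Cacng5 0.15 without those libraries, and dorsal Pcp4 −0.026 to 0.22 with 1 animal left out. Ventral Rgs14 was 0.17 and ventral Pcp4 −0.29 with the antisense ratio (77 antisense genes against 61 hosts) as a covariate, and ventral Pcp4 was −0.093 to 0.14 with 1 animal left out. Depth limits Avpr1b most, since its ventral libraries held at most 11 counts.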
